A study of Sus scrofa and Rattus norvegicus with 8 samples.

Results

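The levels of 9 genes of fat breakdown were read in the white fat of 6 pigs. The genes were 3 lipases (PNPLA2, LIPE and MGLL), 2 co-factors of the first lipase (ABHD5 and G0S2), 3 adrenergic receptors (ADRB1, ADRB3 and ADRA2A) and the phosphodiesterase PDE3B. They were picked by gene symbol, with earlier results of these data known. All 9 had an Ensembl gene ID in the table, among 14844 named nuclear genes and 25880 IDs in all. The 6 libraries were made from backfat, upper layer, of adult female Bama pigs (a Chinese miniature breed) of 2 years, and no treatment separated them. According to the methods of the study, the animals had free access to feed but were not fed during the night before slaughter. Another 2 libraries of the series, from pooled inguinal fat of adult female SD rats of 32 weeks, were not analysed here, since no name table paired their IDs with these genes.

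Lipolysis releases the fatty acids that a fat cell has stored as triglyceride. PNPLA2 (also called ATGL) cleaves the first fatty acid, LIPE (hormone-sensitive lipase) the next one, and MGLL (monoacylglycerol lipase) the last one, leaving glycerol. Catecholamines raise cyclic AMP through beta-adrenergic receptors and lower it through alpha2-adrenergic receptors, the cyclic AMP-dependent protein kinase phosphorylates LIPE and the droplet coat protein PLIN1, and insulin holds the pathway back by activating PDE3B, which degrades cyclic AMP.

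The 3 lipases and ABHD5 share, or have a counterpart of, one short active-site element, in which glycine, any residue, serine, any residue and glycine follow each other and the serine attacks the lipid ester. The element was searched for in the coding sequence of the RefSeq model of each gene on the plus strand of Sscrofa11.1, and ABHD5 was searched with asparagine in the place of serine. In the sequences shown here 5′ to 3′, capitals mark the 5 codons of the element, with 7 bases on either side.
PNPLA2: catctacGGCGCCTCGGCTGGGgcgctcg
LIPE: cctcgcaGGAGACAGCGCAGGCgggaacc
MGLL: ccttctgGGCCACTCCATGGGAggtgcca
ABHD5: cttgctgGGACACAACCTGGGTgggttcc
These run over chr2:513362-513390 in PNPLA2, chr6:49555726-49555754 in LIPE and chr13:27039486-27039514 in ABHD5, each inside 1 coding exon, and over chr13:72546695-72547795 in MGLL, where an intron divides the 29 bases. The middle codon is TCG (codon 47) in PNPLA2, AGC (codon 424) in LIPE and TCC (codon 122) in MGLL, which all encode serine. In ABHD5 it is AAC (codon 152), which encodes asparagine, and ABHD5 is known as an activator of PNPLA2 without triglyceride lipase activity of its own. MGLL holds a second such element at codon 83, which is not the known catalytic one.

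The values are TPM (a relative transcript abundance corrected for transcript length), which sum to the same total in each library and keep no read number, so the depth is unknown and the error of each value is the spread between the 6 libraries. Named nuclear genes made up 24.1 to 26.3% of the TPM of replicates 1, 2, 3 and 6, but 3.34% in replicate 4 and 4.73% in replicate 5, where IDs without a symbol held 96.5 and 94.97%. Deposited TPM of nearly every named gene are therefore low in replicates 4 and 5. Mitochondrially encoded protein genes held 0.209 and 0.298% of the TPM of these 2 libraries, against 10.8 to 21.2% in the other 4. Each gene is given below as deposited and as rescaled TPM, which is the TPM out of 1000000 of named nuclear TPM in the same library. Where replicates 4 and 5 change an order or a direction, the value without them is also given.

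The fat-cell identity of the samples was read from marker lists. Of 9 adipocyte markers measured, 8 were over 0.1 TPM in all 6 libraries, ADIPOQ at 2437 to 3746 rescaled TPM, while RETN was listed at 0 in 5 of them. The summed adipocyte level was 26170 and 37800 rescaled TPM in replicates 4 and 5 and 16630 to 31728 in the other 4. Most of it was FABP4 (20000 and 28926 in replicates 4 and 5). Single adipocyte markers differed in direction. PLIN1 and PPARG were lower in replicates 4 and 5 than in each of the other 4, while CIDEC, GPD1 and THRSP were higher. Endothelial markers summed to 668 and 826 against 1124 to 1348 rescaled TPM, macrophage markers to 365 and 216 against 465 to 603, smooth muscle markers to 550 and 627 against 681 to 1095, and progenitor and fibroblast markers to 9636 and 16872 against 14934 to 28370. Of the genes measured in these 4 lists, all were over 0.1 TPM in all 6 libraries but 1 macrophage gene, and the endothelial list had 5 of its 7 genes measured. Of 6 liver markers 4 were detected in all 6 libraries, with sums of 1217 and 1404 rescaled TPM in replicates 4 and 5 against 64.5 to 1032, most of it ALB, and with APOA2 and SERPINA1 at 0 in at least 1 library. Lymphoid markers summed to at most 39.6, skeletal muscle markers to at most 16.3 (TNNT1 and TNNT3 at 0 in at least 1 library) and keratinocyte markers to at most 1.60 rescaled TPM (KRT1 at 0 in at least 1). The part of this mixture in the levels of the lipolysis genes was not tested, and in bulk tissue fewer cells of a type and less RNA per cell cannot be told apart.

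LIPE was the most abundant of the 9 genes in every library, and the order within the lipases was LIPE, PNPLA2, MGLL in all 6. LIPE (ENSSSCG00000003018; chromosome 6, 49543671 to 49560126, plus strand, 10 exons) had 1046, 1120, 1519, 577, 423 and 1255 rescaled TPM in replicates 1 to 6, with a mean of 990 ± 415 (SD, n = 6). As deposited it had 261, 270, 398, 19.3, 20.02 and 331 TPM. By its mean it ranked 96 of the 14844 named nuclear genes. Replicates 4 and 5 lay below the other 4 on both scales, and the mean of the other 4 was 1235 ± 208 rescaled TPM (SD, n = 4).

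PNPLA2, which opens the cascade, was second among the 9. PNPLA2 (ENSSSCG00000012841; chromosome 2, 513065 to 517962, plus strand, 9 exons) had 492, 420, 658, 163, 130 and 532 rescaled TPM in replicates 1 to 6, with a mean of 399 ± 211 (SD, n = 6), and 123, 101, 172, 5.44, 6.14 and 140 TPM as deposited. Its highest library was 5.07 times its lowest in rescaled TPM. The split was between replicates 4 and 5 and the rest, which averaged 526 ± 99.8 rescaled TPM (SD, n = 4).

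MGLL was the lowest of the lipases. MGLL (ENSSSCG00000024134; chromosome 13, 72480395 to 72568964, plus strand, 8 exons) had 191, 257, 235, 114, 114 and 157 rescaled TPM in replicates 1 to 6, with a mean of 178 ± 60.4 (SD, n = 6), and 47.8, 62.0, 61.5, 3.82, 5.40 and 41.3 TPM as deposited. Its highest library was 2.25 times its lowest in rescaled TPM, the narrowest range of the lipases over 6 libraries. Without replicates 4 and 5 its coefficient of variation (CV, the SD over the mean) was 0.213, against 0.190 for PNPLA2 and 0.169 for LIPE.

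Shares and ratios of deposited TPM within a library are not changed by a factor applied to the whole library, although quantile normalization changes them. LIPE held 60.5 to 67.5% of the summed TPM of the 3 lipases, PNPLA2 19.1 to 28.5% and MGLL 8.06 to 17.1%. PNPLA2 had its lowest shares in replicates 4 (19.1%) and 5 (19.5%), against 23.3 to 28.5% in the other 4. The ratio of LIPE to PNPLA2 was 2.12, 2.67, 2.31, 3.54, 3.26 and 2.36 in replicates 1 to 6. The difference between them, 1.41 ± 0.29 on the log2(rescaled TPM + 1) scale (SD, n = 6), had 1 direction in all 6 libraries (exact two-sided sign-flip permutation test, p = 0.03125, the smallest that 6 libraries allow, and 0.0388 after Benjamini-Hochberg adjustment over 36 pairs of genes).

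**Figure D1:**
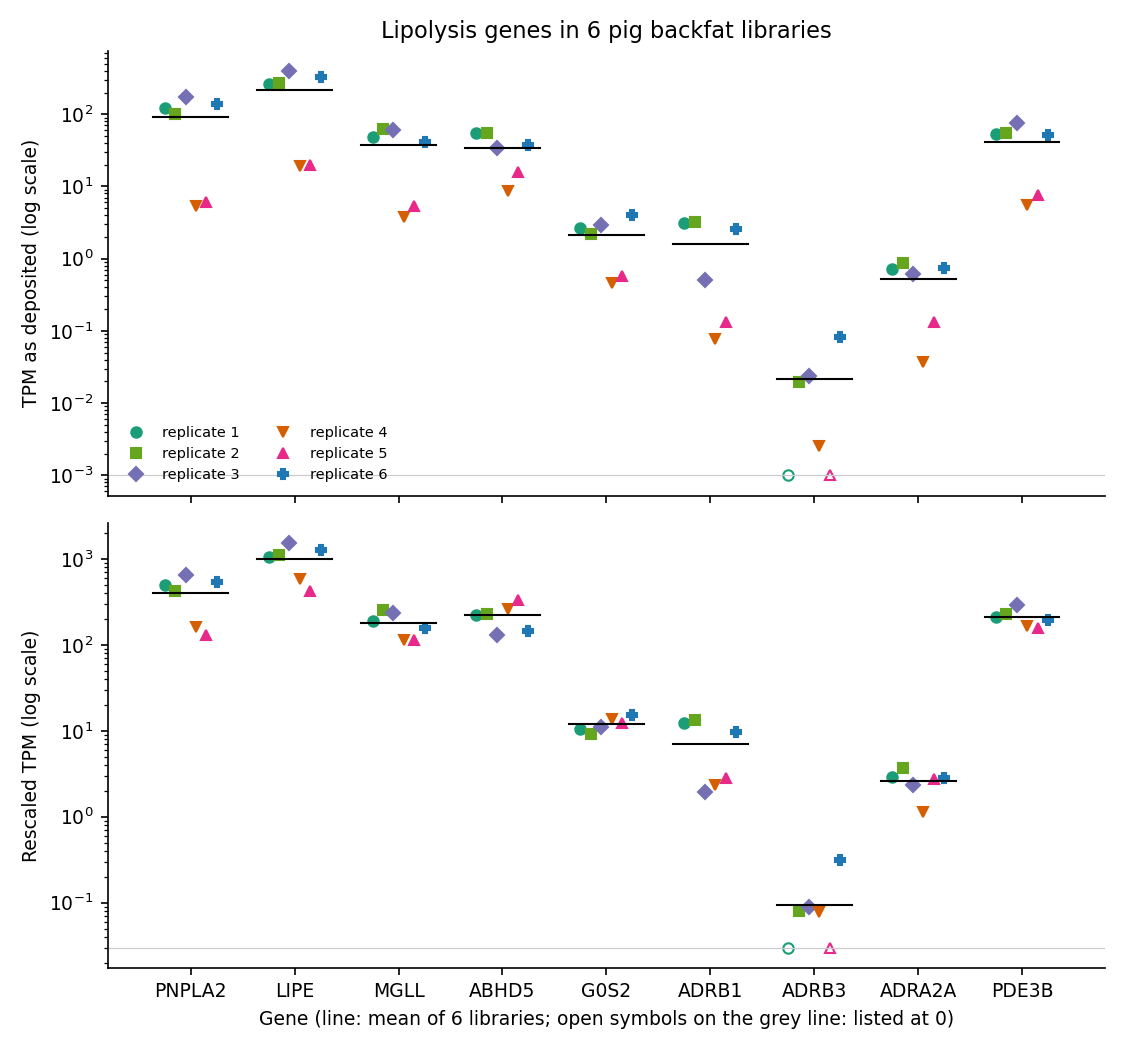
Level of each of the 9 genes in each of the 6 libraries, as deposited TPM (top) and as rescaled TPM (bottom), both on log axes, with the mean as a line and values of 0 as open symbols on the grey line. Replicates 4 and 5 are lower than the rest for nearly every gene in the top panel, while in the bottom panel they lie lowest for PNPLA2, LIPE, MGLL and PDE3B and highest for ABHD5.

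The 2 co-factors of PNPLA2, its activator ABHD5 and its inhibitor G0S2, differed in level by more than an order of magnitude. ABHD5 (ENSSSCG00000011297; chromosome 13, 27006331 to 27053760, plus strand, 8 exons) had 223, 231, 129, 259, 334 and 144 rescaled TPM in replicates 1 to 6, with a mean of 220 ± 75.9 (SD, n = 6). As deposited it had 55.6, 55.7, 33.7, 8.64, 15.8 and 37.9 TPM. It was thus lowest in replicates 4 and 5 as deposited and highest there once rescaled, and the mean of the other 4 libraries was 182 ± 52.9 rescaled TPM (SD, n = 4).

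G0S2 (ENSSSCG00000015617; chromosome 9, 133287065 to 133288066, minus strand, 1 exon) had 10.5, 9.23, 11.07, 13.8, 12.3 and 15.2 rescaled TPM in replicates 1 to 6, with a mean of 12.0 ± 2.20 (SD, n = 6), and 2.63, 2.22, 2.90, 0.462, 0.582 and 4.00 TPM as deposited. Its CV of 0.183 was the lowest of the 9 genes over 6 libraries, and replicates 4 and 5 lay within the range of the others. Without replicates 4 and 5 its CV was 0.223 and no longer the lowest. LIPE (0.169), PDE3B (0.184), ADRA2A (0.188), PNPLA2 (0.190) and MGLL (0.213) were then below it. The mean level of G0S2 was below the median of the means of all named nuclear genes, 16.7 rescaled TPM. ABHD5 exceeded G0S2 9.47 to 27.1 times in TPM within a library, a difference of 4.03 ± 0.60 on the log2(rescaled TPM + 1) scale (SD, n = 6) with 1 direction in 6 of 6 libraries (exact permutation p = 0.03125, adjusted p = 0.0388).

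The ratio of the activator to its lipase varied most among the ratios computed. ABHD5 to PNPLA2 was 0.452, 0.551, 0.196, 1.59, 2.57 and 0.270 in replicates 1 to 6, so that ABHD5 exceeded PNPLA2 in replicates 4 and 5 alone. The highest ratio was 13.2 times the lowest over 6 libraries. Without replicates 4 and 5 the ratios were 0.196 to 0.551. Over all 6 libraries PNPLA2 and ABHD5 did not differ beyond their spread (0.70 ± 1.44 on the log2 scale, SD, n = 6, exact permutation p = 0.3125, adjusted p = 0.331), while without replicates 4 and 5 the difference was 1.56, with no test. PNPLA2 to G0S2 moved in the same libraries, with 46.7, 45.5, 59.4, 11.8, 10.5 and 35.1. ABHD5 to LIPE was 0.448 and 0.790 in replicates 4 and 5 against 0.0847 to 0.213 in the other 4, and ABHD5 to MGLL was 2.26 and 2.93 against 0.548 to 1.16. Neither pair of ranges overlapped, but how often the ratios of other gene pairs separate in this way was not computed. Both ratios hold the same ABHD5 values. Among single genes in rescaled TPM, replicates 4 and 5 were both below the other 4 libraries for 50.1% and both above for 10.4%.

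**Figure D2:**
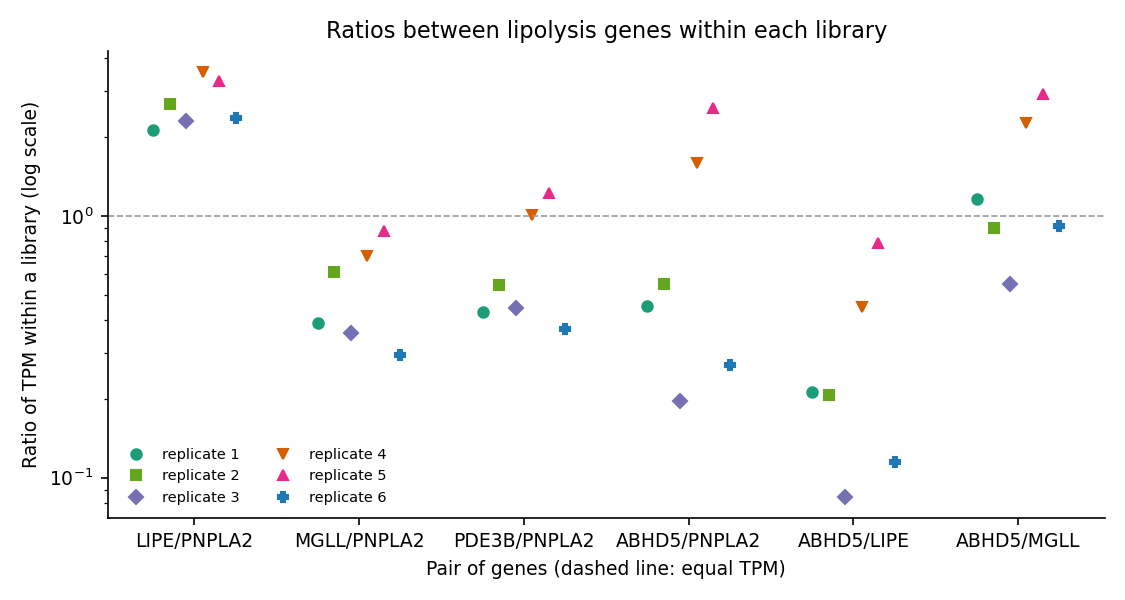
Ratio of deposited TPM for 6 pairs of lipolysis genes within each library, on a log axis, with a dashed line at equal TPM. The ratios of ABHD5 to the lipases are highest in replicates 4 and 5, where ABHD5 to PNPLA2 is 1.59 and 2.57, against 0.196 to 0.551 in the other 4.

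PDE3B, the cyclic AMP phosphodiesterase through which insulin acts on lipolysis, had a mean near those of ABHD5 and MGLL. Its place among them depended on replicates 4 and 5 and on the scale, being between them in rescaled TPM and above both as deposited (41.6 TPM against 37.0 for MGLL and 34.6 for ABHD5). PDE3B (ENSSSCG00000013388; chromosome 2, 44416934 to 44614075, minus strand, 17 exons) had 212, 228, 294, 164, 159 and 196 rescaled TPM in replicates 1 to 6, with a mean of 209 ± 49.4 (SD, n = 6). As deposited it had 52.9, 55.1, 76.8, 5.49, 7.51 and 51.7 TPM. Replicates 4 and 5 were lowest on both scales, but the rescaled range was only 1.85 times from lowest to highest. ABHD5 minus PDE3B was 0.03 ± 0.80 on the log2(rescaled TPM + 1) scale (SD, n = 6, exact permutation p = 0.90625, adjusted over 36 pairs 0.906), with ABHD5 higher in 4 of 6 libraries. PDE3B minus MGLL was 0.27 ± 0.25 (SD, n = 6, exact permutation p = 0.09375, adjusted p = 0.109), higher in 5 of 6. Neither difference passed the test. Without replicates 4 and 5 they were -0.39 and 0.15 on the same scale, with no test, and PDE3B then averaged 233 ± 42.7 rescaled TPM (SD, n = 4), above both MGLL (210.0) and ABHD5 (182).

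The 3 adrenergic receptors had the lowest mean levels of the 9 genes. ADRB1 (beta1-adrenergic receptor, which raises cyclic AMP; ENSSSCG00000010647; chromosome 14, 124400330 to 124401739, plus strand, 1 exon) had 12.4, 13.3, 1.95, 2.34, 2.79 and 9.80 rescaled TPM in replicates 1 to 6, with a mean of 7.09 ± 5.32 (SD, n = 6), and 3.09, 3.21, 0.509, 0.0783, 0.132 and 2.58 TPM as deposited. Its libraries fell into 3 high ones (replicates 1, 2 and 6) and 3 low ones (replicates 3, 4 and 5), so that replicate 3, whose named nuclear share was like that of the high ones, was the lowest. Its CV of 0.750 was the highest of the 9 genes after ADRB3, and it was 0.551 without replicates 4 and 5.

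ADRA2A (alpha2A-adrenergic receptor, which lowers cyclic AMP; ENSSSCG00000010629; chromosome 14, 121469572 to 121470924, plus strand, 1 exon) had 2.87, 3.65, 2.33, 1.13, 2.78 and 2.83 rescaled TPM in replicates 1 to 6, with a mean of 2.60 ± 0.84 (SD, n = 6). As deposited it had 0.717, 0.881, 0.609, 0.0376, 0.131 and 0.744 TPM. Only replicate 4 was below 2 rescaled TPM. ADRB1 exceeded ADRA2A 4.31, 3.65, 0.836, 2.08, 1.00 and 3.47 times in replicates 1 to 6, higher in 5 of 6, a difference of 0.90 ± 0.86 on the log2(rescaled TPM + 1) scale (SD, n = 6) that did not pass (exact permutation p = 0.09375, adjusted p = 0.109).

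ADRB3 (beta3-adrenergic receptor; ENSSSCG00000015821; chromosome 15, 48468803 to 48478370, plus strand, 2 exons) is the beta receptor known for lipolysis in the fat of rodents. It had 0, 0.0195, 0.0234, 0.00257, 0 and 0.0834 TPM as deposited in replicates 1 to 6, which is 0, 0.0809, 0.0893, 0.0769, 0 and 0.316 rescaled TPM. No library reached 0.1 TPM, the level above which the study called a gene transcribed. A value of 0 in a table without counts can also be a failed estimate. ADRB1 was above ADRB3 in 6 of 6 libraries (2.58 ± 1.05 on the log2(rescaled TPM + 1) scale, SD, n = 6, exact permutation p = 0.03125, adjusted p = 0.0388), as was ADRA2A (1.68 ± 0.41, exact permutation p = 0.03125, adjusted p = 0.0388).

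Related receptors could share reads. No 2 of the 9 genes had an identical stretch of 31 bases (the usual word length of Kallisto, whose setting the sources used here do not give) between their RefSeq coding transcripts, and the longest stretch was 16 bases. ADRA2A shared one stretch of 31 bases with ADRA2C, another alpha2 receptor, and of 27 bases with ADRA2B. ADRB1 and ADRB3 shared at most 15. The single RefSeq models of ADRB1 (1410 bases) and ADRA2A (1353 bases) hold the coding sequence only. The transcript models used for the TPM were not used here, and a model without its untranslated ends would leave the reads of those ends uncounted.

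The wider receptor family put these levels in context. Among 8 adrenergic receptor genes measured, the order of mean rescaled TPM was ADRA1A (7.96 ± 3.06), ADRB1 (7.09 ± 5.32), ADRA2C (5.41 ± 2.42), ADRA1B (2.71 ± 0.957), ADRA2A (2.60 ± 0.838), ADRA2B (1.92 ± 0.860), ADRA1D (1.30 ± 0.665) and ADRB3 (0.0939 ± 0.116) (SD, n = 6 each). Without replicates 4 and 5 the first 2 changed places, with ADRB1 at 9.36 ± 5.16 and ADRA1A at 9.15 ± 3.14 rescaled TPM (SD, n = 4). Over 6 libraries, neighbours in this order overlapped within 1 SD of their means down to ADRA1D, whereas ADRB3 did not overlap with ADRA1D. ADRB1 was the highest receptor in replicates 1, 2 and 6, ADRA1A in replicates 3 and 4 and ADRA2C in replicate 5. ADRB1 held 32.9, 33.0 and 37.6% of the summed TPM of the 8 receptors in replicates 1, 2 and 6, and 7.86, 11.2 and 11.3% in replicates 3, 4 and 5.

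**Figure D3:**
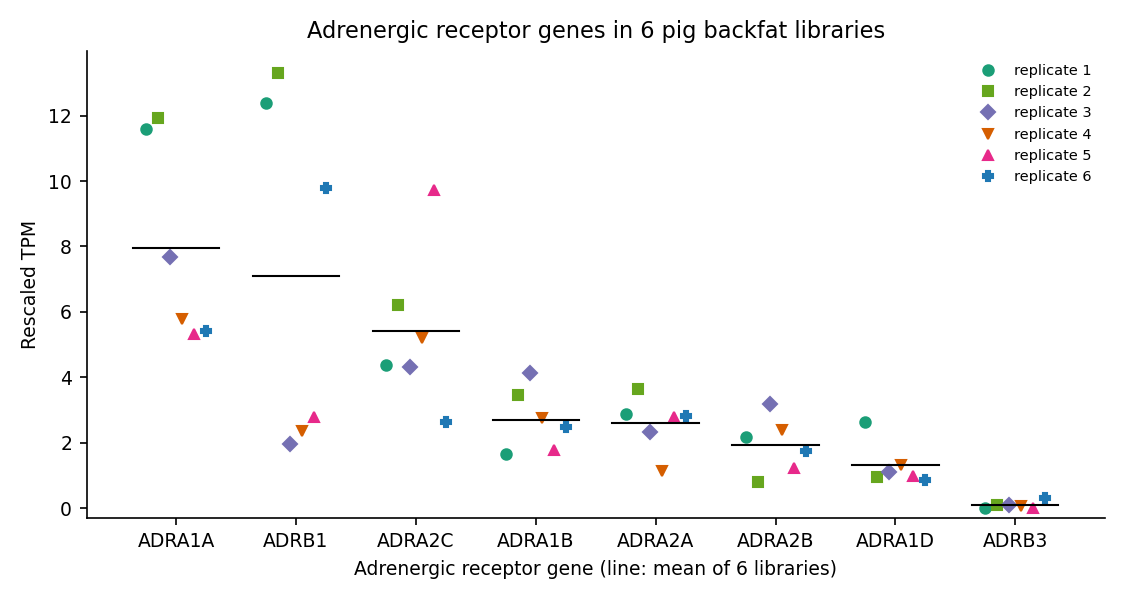
Rescaled TPM of 8 adrenergic receptor genes in each of the 6 libraries, ordered by their means, which are drawn as lines. ADRB1 separates into replicates 1, 2 and 6 at 9.80 to 13.3 and replicates 3, 4 and 5 at 1.95 to 2.79, while all ADRB3 values are at most 0.316.

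Of the 9 genes, 6 (PNPLA2, LIPE, MGLL, ABHD5, G0S2 and PDE3B) were over 0.1 TPM as deposited in all 6 libraries, where 67.2% of the 14844 named nuclear genes were. ADRB1 and ADRA2A fell under that level in replicate 4 alone, and without replicates 4 and 5 the count was 8 of 9, where 83.1% of named nuclear genes were detected. The median of the 9 mean levels was 178 rescaled TPM, against 16.7 for all named nuclear genes. From high to low the means ran LIPE, PNPLA2, ABHD5, PDE3B, MGLL, G0S2, ADRB1, ADRA2A and ADRB3, and without replicates 4 and 5 the middle of this order became PDE3B, MGLL, ABHD5. Of the 36 pairs that these genes form, 29 had the same order in all 6 libraries and passed at an adjusted p of 0.0388 (exact sign-flip permutation test), and 7 did not pass. Each of these 7 lay within one of 2 sets, the first PNPLA2, ABHD5, PDE3B and MGLL and the second G0S2, ADRB1 and ADRA2A, in which PNPLA2 over MGLL and G0S2 over ADRA2A passed. Without ADRB3, whose values were all under 0.1 TPM, 21 of 28 pairs passed.

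The median spread of these genes between animals lay above the median of all genes and within their quartiles. Single genes lay on both sides, with PNPLA2 and LIPE above the upper quartile and G0S2 below the lower one. The 6 genes with a mean of at least 10 rescaled TPM had a median CV of 0.342, against 0.282 (quartiles 0.185 and 0.416) for the 8866 named nuclear genes that reach that mean. PNPLA2 had a CV of 0.528, higher than 87.9% of those genes, and LIPE one of 0.419, higher than 75.5%. G0S2 was at the other end over 6 libraries, with a CV of 0.183, above 24.4% of genes. PDE3B (0.237) was also under the median of all genes. Without replicates 4 and 5 the CV of G0S2 was 0.223. Without replicates 4 and 5 the medians were 0.202 for the 6 genes and 0.161 for all.

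Whether replicates 4 and 5 differ from the rest in a given gene depends on the scaling, so the place of these libraries was read under 6 scales, a description chosen after the values were seen. In rescaled TPM, both were below the other 4 for 4 of the 8 genes with a mean of at least 1 (PNPLA2, LIPE, MGLL and PDE3B), but 50.1% of 12130 named nuclear genes were placed in this way, and the median of all genes was shifted by -0.53 on the log2 scale. Both were above the other 4 for 1 of 8 (ABHD5), where 10.4% of genes were. With a median-ratio factor for each library the shares of all genes were 27.6% below and 28.5% above, and the median shift was 0.02. PNPLA2 and LIPE were below under all 6 scales. MGLL was below under 5, with overlap under the median-ratio factor, and PDE3B under 4. ABHD5 was above under 4, below as deposited, and overlapping when divided by adipocyte markers. G0S2 was above under the median-ratio factor and quantile normalization.

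Relative to the median of all genes in rescaled TPM, a measure that a factor for each library does not change, PNPLA2 was lower in replicates 4 and 5 by a log2 difference of -1.30 and ABHD5 higher by 1.28 (-1.61 and 0.79 after quantile normalization). The difference of PNPLA2 was above that of 9.86% of 12036 genes and the difference of ABHD5 above that of 94.9%. LIPE (-0.77), MGLL (-0.32), ADRB1 (-1.02) and ADRA2A (-0.17) were lower than the median shift, PDE3B was next to it (0.03) and G0S2 higher (0.74). These are differences of means. For ADRB1, ADRA2A and G0S2 replicates 4 and 5 overlapped with the other 4 libraries in rescaled TPM. The lowest ADRB1 value was in replicate 3. These 8 genes thus did not move as a block between these libraries. ADRB3, with a mean under 1, was not included. No test was made, since these 2 libraries are not a group of the study.

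**Figure D4:**
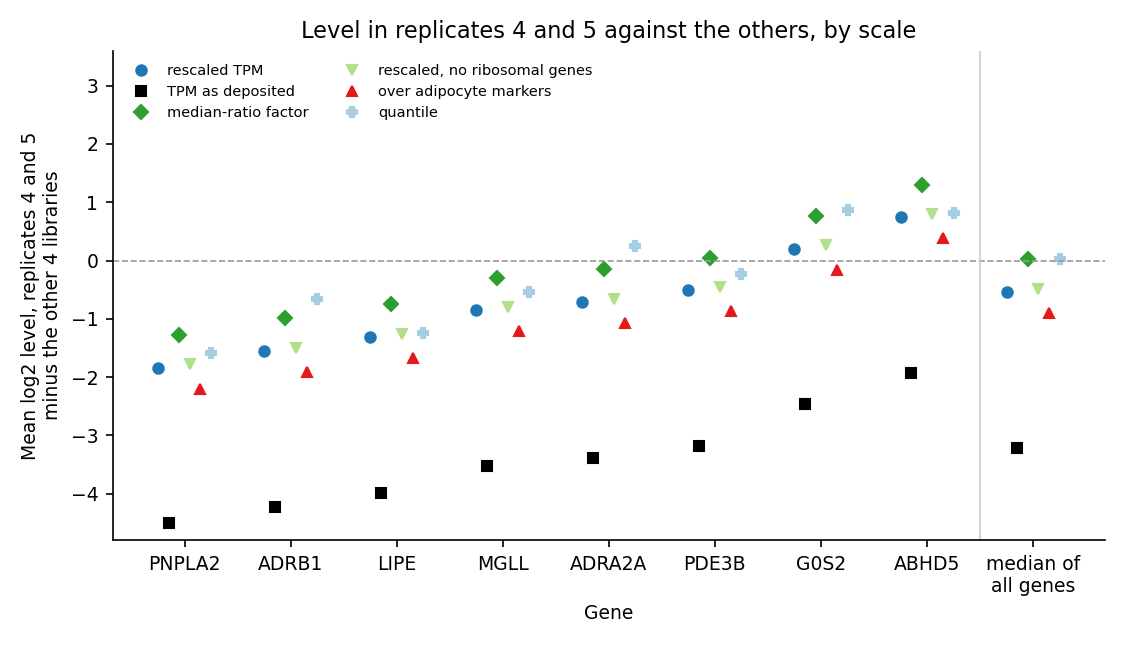
Mean log2 level in replicates 4 and 5 minus that in the other 4 libraries, for the 8 genes with a mean of at least 1 rescaled TPM and for the median of all genes, under 6 scales. Apart from quantile normalization the scales shift the genes together. PNPLA2 is lowest under all 6, and ABHD5 is highest under all but quantile normalization, where G0S2 is.

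None of the 8 genes had 1 library far from the other 5 in rescaled TPM by Dixon's ratio of gap to range, where 4.83% of the 12130 genes did.

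The rest of the pathway was read from a list of 92 genes in 12 roles, of which 81 were measured. Of these, 68 were over 0.1 TPM in all 6 libraries, where 67.2% of all named nuclear genes were. Upstream of cyclic AMP, the inhibitory G protein subunits GNAI2 (295 ± 118 rescaled TPM) and GNAI1 (219 ± 51.6) had the highest means of their role. The leading adenylyl cyclases were ADCY5 (72.5 ± 30.2) and ADCY6 (44.4 ± 7.43) (SD, n = 6 each). The stimulatory G protein listed beside the cyclases was not measured, so stimulatory and inhibitory G proteins could not be compared. Of 3 antilipolytic receptors measured, the adenosine receptor ADORA1 had 62.9 ± 18.8 and the prostaglandin E receptor PTGER3 54.5 ± 27.0 rescaled TPM (SD, n = 6), both well over ADRA2A. Another 9 receptors were listed with lipolysis, not all of which act through cyclic AMP. Among them, the natriuretic peptide receptor NPR1 had 159 ± 16.5 and its clearance counterpart NPR3 26.0 ± 8.0 rescaled TPM (SD, n = 6). NPR1 thus lay above each adrenergic receptor in all 6 libraries, with 133 to 175 rescaled TPM.

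Downstream of cyclic AMP, the regulatory subunits of protein kinase A led, with PRKAR2B at 575 ± 113 and PRKAR1A at 433 ± 67.7 rescaled TPM (SD, n = 6). PDE3B had a higher mean than each of the 10 other phosphodiesterases listed, of which PDE8A had 104 ± 34.2 and its paralog PDE3A 72.0 ± 28.8 rescaled TPM (SD, n = 6). Of the arm by which insulin reaches PDE3B, AKT2 had 382 ± 123 and the phosphatidylinositol 3-kinase subunit PIK3R1 338 ± 191 rescaled TPM. Genes of receptor desensitization were led by GRK3 (167 ± 26.1) and ARRB1 (45.3 ± 18.9). All 6 were detected in every library, as were 67.2% of all named nuclear genes.

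At the droplet, PLIN1, which holds ABHD5 until it is phosphorylated, had 2137, 1506, 1973, 1351, 1247 and 1738 rescaled TPM in replicates 1 to 6, and CIDEC, a droplet fusion protein, 647, 391, 595, 892, 856 and 522. CIDEC, as ABHD5, was highest in replicates 4 and 5, and PLIN1, as PNPLA2, lowest. Among other lipid hydrolases the lysosomal acid lipase LIPA had 289 ± 126 and the phospholipase DDHD2 173 ± 38.8 rescaled TPM (SD, n = 6), below LIPE and PNPLA2 in the mean. The fatty acid binding proteins FABP4 (18679 ± 7299) and FABP5 (964 ± 467) led the genes of product handling. Over the 75 pathway genes with a mean of at least 1 rescaled TPM, replicates 4 and 5 were both below the other 4 for 39 and both above for 6, shares close to those of all genes.

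**Figure D5:**
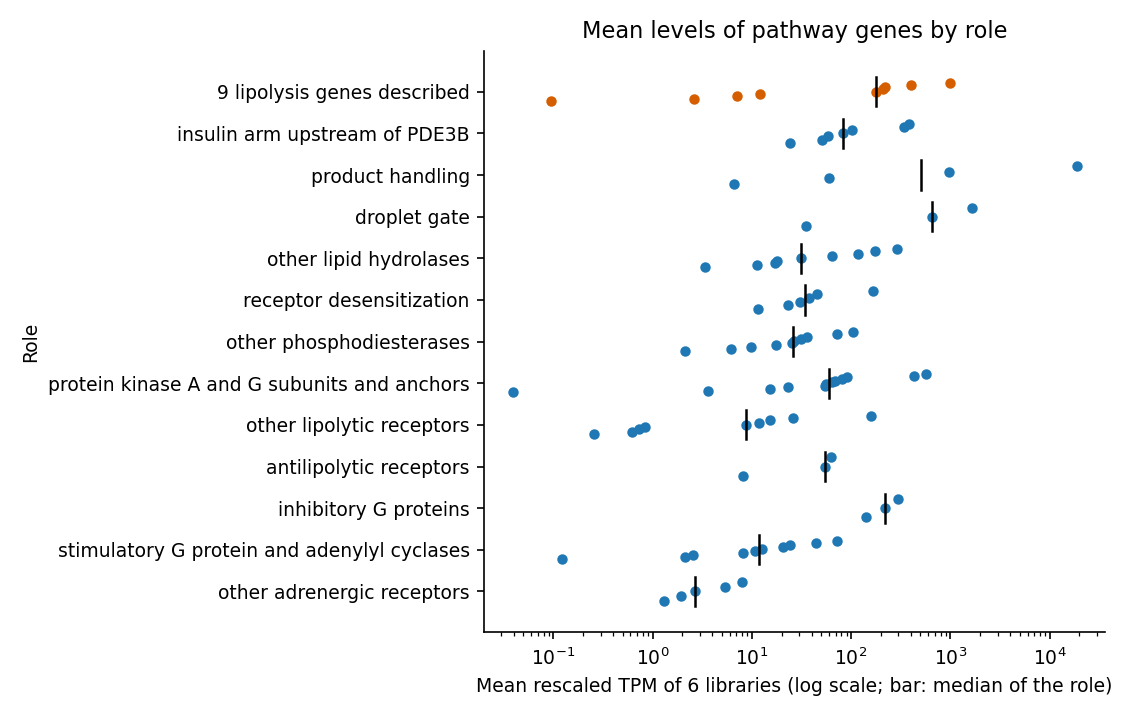
Mean rescaled TPM over 6 libraries on a log axis for the 81 measured pathway genes by role (blue) and for the 9 lipolysis genes (orange), with the median of each role as a bar. The role medians run from 2.71 (other adrenergic receptors) to 650 (droplet gate), and the median of the 9 genes is 178.

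The genes whose profile over the 6 libraries was most like that of each lipolysis gene were found by the root mean square (RMS) difference of centred log2(rescaled TPM + 1), among the 8866 named nuclear genes with a mean of at least 10. For PNPLA2 they were TESK1 (RMS 0.0934) and the transcription factor TEAD1 (0.112), where the median gene had 0.869. For LIPE they were the laminin subunit LAMC1 (0.0952) and ZNF318 (0.0956), and for MGLL SLAIN2 (0.0983) and EPB41L4A (0.0998). ABHD5 was followed by PKDCC (0.131) and TRAF2 (0.148). In replicates 4 and 5 PKDCC had 39.1 and 47.3 rescaled TPM, against 22.7 to 41.0 in the other 4 libraries. TRAF2 had 20.1 and 21.1, against 8.47 to 18.2. Nearest to G0S2 were WDR45 (0.0608) and DCUN1D5 (0.0735), to ADRA2A LY6G6F (0.0664) and NAGK (0.112), and to PDE3B LRRCC1 (0.0751) and DCTD (0.0944). ADRB1 had the least close neighbours, BANP (0.232) and CLHC1 (0.262), which were also high in replicates 1, 2 and 6. All these genes were selected by their profile, so a shared profile is no separate result. The profile of ADRB3 is nearly flat on this scale, and COIL (0.0436) and ABCF1 (0.0442) were its nearest. No other lipolysis gene was among these 18 nearest places. ADRB1, ADRA2A and ADRB3 could not be, since their means were under 10. With 8866 candidate genes this says little about whether the lipolysis genes vary together.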

How the data were processed

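RNA-seq of pig backfat (6 libraries, rRNA-depleted, stranded) was used. The TPM values were computed by the authors with Kallisto (version 0.43.0 in the submitters' processing notes) for Sscrofa11.1 and deposited as 1 table. The methods of the study name an Ensembl annotation of the pig without linking this table to it. TPM keep no read numbers, so no counting error is given.

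Symbols came from a name table by Ensembl ID (14857 of 25880 IDs, 57.4%). Rescaled TPM divide each of 14844 named nuclear genes by their sum in the library, times 1000000. A gene was detected over 0.1 TPM. Pairs of genes were compared by within-library differences of log2(rescaled TPM + 1) with an exact two-sided sign-flip permutation test and Benjamini-Hochberg adjustment over the 36 pairs. The CV used genes with a mean of at least 10 and the place of libraries those of at least 1. The 9 genes and all lists were chosen with earlier results of these data known. Named are the 9 genes, the 2 highest of each pathway role by mean, and the 2 nearest genes in profile, and all adrenergic receptors were added after their values were seen. Gene models, coordinates (1-based) and sequences are RefSeq's on Sscrofa11.1, read with samtools 1.23.1 and Biopython 1.88, from the curated transcript or, for PDE3B, the predicted one. The procedures were tested on simulated data. Alternatives were other scalings, pseudocounts, thresholds and left-out libraries, with numpy 2.4.6 and pandas 2.3.3. The study's methods name 6 individuals for this depot.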

Additional observations from a re-analysis of the deposited data

Results flagged for a closer look

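Dixon's ratio of the gap to the range was computed for 30 sets of 6 values, and 2 sets had 1 library far from the other 5. Chance marks about 1 in 20 sets. Both were ADRB3 in replicate 6, which had 0.0834 TPM as deposited against 0 to 0.0234 TPM in the other 5 libraries, and 0.316 rescaled TPM against 0 to 0.0893. All 6 values are under the 0.1 TPM that the study took as transcribed, and how many reads stand behind them is unknown.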

How the results depend on the processing

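No paired analysis was possible because the replicate numbers that pig and rat share pair no animals and rat IDs were not matched to these genes. The median CV of the 6 genes, 0.342, was 0.701 in TPM as deposited, which keep the unequal composition of the libraries by construction, and 0.202 without replicates 4 and 5, which are the libraries that differ most. It was 0.297 to 0.385 when 1 library was left out and 0.326 to 0.380 under the other scalings. The 29 pairs passing at an adjusted p of 0.05 were 29 with a pseudocount of 0.1, in TPM as deposited and after quantile normalization, and 21 of 28 without a pseudocount. With 1 library left out no pair can pass, since 5 libraries allow no exact p below 0.0625, but 29 or 30 pairs kept 1 order in every library, and 31 without replicates 4 and 5. The order of the mean levels was identical under 4 other scalings. As deposited 6 of 9 genes kept their place, without replicate 4 or replicate 5 7 of 9, and without both 6 of 9. Detection counts were 5 of 9 at over 1 TPM (30.9% of all genes), 8 of 9 at over 1 rescaled TPM (74.3%), and 6 to 8 with 1 library left out. Of the 8 genes with a mean of at least 1, the 4 with replicates 4 and 5 below the others became 8 as deposited (98.2% of all genes), 2 with a median-ratio factor (27.6%), 3 after quantile normalization (25.8%) and 5 when divided by adipocyte markers (53.7%). The 1 above them became 0 as deposited (0.0742% of all genes) and when divided by adipocyte markers (2.55%), and 2 (ABHD5 and G0S2) with a median-ratio factor (28.5%) or quantile normalization (27.4%). The cause was not tested. These counts, and detection without replicates 4 and 5, were chosen after the data were seen. Depth, unknown here, limits ADRB3, ADRA2A and ADRB1 most.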
